A study of Mus musculus with 50 samples.

Results

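The genes described are 10 that encode the contractile apparatus of smooth muscle and of myofibroblasts, taken as a fixed list of 10 of the 21954 genes in each table: Acta2, Tagln, Cnn1, Myh11, Des, Actg2, Myl9, Lmod1, Synpo2 and Smtn. They were followed in RNA-seq of tissue around the wound bed after amputation of the terminal phalanx of mouse digit 3, in 29 non-regenerative and 12 intermediate digits, 41 of the 50 samples of the series. All digits came from adult male C57Bl/6 mice in which digit 3 of both hindlimbs was cut, with no transgene or drug named, and the groups are set apart by the share of the phalanx removed and the time of collection. Non-regenerative digits (labelled NR) had labelled amputation levels of 60 to 80% of the phalanx and were taken at 9 times, on days 3, 7, 14 and 21 and, within the first day, at 0, 3, 6, 12 and 24 hours (5 digits on day 7 and 3 at each other time). Non-regeneration is taken to follow the loss of over 67% of the phalanx, and 12 of the 29 were labelled at or below that level, among them 2 of the 3 digits at 0 hours and all 3 at 12 hours. Intermediate digits (labelled Medium) had levels of 41 to 55% and were taken at 0 hours, 24 hours, 14 days and 21 days, 3 each. Regenerative digits were not analysed here. The other 9 samples were cultured bone-marrow macrophages, which enter no comparison. Each digit library is a mixture of all the cells near the wound, and fewer cells of a type and less RNA per cell cannot be told apart in such tissue.

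Smooth muscle cells wrap arteries and veins, pericytes line capillaries, and the related myoepithelial cells surround the sweat glands of the footpad. Their force comes from smooth muscle actin sliding on smooth muscle myosin, switched by phosphorylation of the myosin regulatory light chain. Myofibroblasts, fibroblasts that contract a healing wound, take on smooth muscle actin but little of the smooth muscle myosin heavy chain. Most genes of the set are driven by serum response factor bound at a CArG box, together with myocardin or its relatives, which leave the cytoplasm for the nucleus when actin polymerises.

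Promoters were read from RefSeq, build GRCm38.p6, which held 7 of the 10 genes (Acta2, Cnn1, Des, Myl9, Lmod1, Synpo2 and Smtn). CArG boxes were searched on both strands from 250 bases before to 50 bases after the start, first exactly and then with 1 inner letter allowed to be G or C. Myl9 held 1 exact box, CCTAATAAGG, 161 bases before its start, and 1 of the looser form, CCTTGTAAGG, 99 bases before it. Acta2 held 2 of the looser form, CCCTATATGG at 84 and CCTTGTTTGG at 34 bases before the start. Neither form lay in the window of the other 5. Among 32851 such windows of all genes, 1.63% held an exact box and 8.5% one of the looser form. The 250 bases before the start are shown for Acta2 and Myl9, which hold the boxes, and for Smtn, whose level moved least like the others, with boxes in capitals. They lie at chr19:34255374-34255623 (minus strand), chr2:156775214-156775463 (plus strand) and chr11:3539293-3539542 (minus strand). The Smtn window lies whole inside that gene as GENCODE annotates it (chr11:3517523-3540612), and the upstream end of this span was not searched.
Acta2: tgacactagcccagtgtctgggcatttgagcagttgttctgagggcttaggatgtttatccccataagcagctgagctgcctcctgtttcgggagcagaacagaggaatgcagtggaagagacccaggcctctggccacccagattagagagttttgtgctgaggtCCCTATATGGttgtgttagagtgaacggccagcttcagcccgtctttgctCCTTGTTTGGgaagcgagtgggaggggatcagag
Myl9: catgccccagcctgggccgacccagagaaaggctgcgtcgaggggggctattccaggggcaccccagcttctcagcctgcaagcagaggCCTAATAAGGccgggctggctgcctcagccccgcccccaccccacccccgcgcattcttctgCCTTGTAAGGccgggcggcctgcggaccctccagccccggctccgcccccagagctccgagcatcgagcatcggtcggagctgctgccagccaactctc
Smtn: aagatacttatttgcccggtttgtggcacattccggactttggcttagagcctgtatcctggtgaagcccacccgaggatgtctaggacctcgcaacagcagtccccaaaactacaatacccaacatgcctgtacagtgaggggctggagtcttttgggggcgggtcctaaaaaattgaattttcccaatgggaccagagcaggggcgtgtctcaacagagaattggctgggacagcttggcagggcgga

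Libraries of the digits held 1468749 to 13011782 expected counts, with a median of 6835347. Labels place the 41 digits in an earlier (24) and a later (17) period of dates, and 4 groups lay in 1 period whole, namely 3 hours, 12 hours and intermediate 21 days in the earlier and non-regenerative 21 days in the later. In 2 non-regenerative digits the libraries stood apart. Replicate 2 at 14 days summed to 3362791 normalized TPM, against 836756 and 939809 in the other two, and its summed level of 6 sweat gland genes was 806 CPM, against 11.4 to 226 in the rest of the digits. Replicate 2 at 7 days had counts above 0 in 10096 genes only. Levels within a gene are given as normalized CPM (counts scaled by library size and by TMM factors over the 41 digits), and levels between genes as normalized TPM, which is per length. A gene was called changed at an adjusted p under 0.05 (edgeR's quasi-likelihood test, Benjamini-Hochberg over all genes tested) if its mean normalized count, with 1 added, also differed by more than 2-fold.

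By level per length, thin-filament genes led. The median over 41 digits was 137 normalized TPM for Tagln, an actin-binding protein of smooth muscle also called SM22-alpha, and 122 for Acta2, smooth muscle alpha-actin. Smtn, which encodes smoothelin, followed at 68.9, then Myl9, the regulatory light chain, at 39.2, Myh11, the smooth muscle myosin heavy chain, at 32.6, and Cnn1, the actin-binding calponin, at 25.9. Neighbours in this order changed places between digits: Tagln was above Acta2 in 27 of 41 digits, Acta2 above Smtn in 34, Smtn above Myl9 in 32, Myl9 above Myh11 in 26 and Myh11 above Cnn1 in 30. Cnn1 was above the next gene in 41 of 41. The lower 4 were Lmod1, which encodes the actin nucleator leiomodin 1, at 3.23, Synpo2, which encodes the actin-bundling synaptopodin 2, at 3.17, Actg2, enteric smooth muscle actin, at 1.71, and Des, the muscle intermediate filament desmin, at 1.28. Actg2 had 3 counts or fewer in 11 digits and Des in 7, so changes in these 2 genes were hardly detectable at this depth, and Actg2 was too low to be tested in most comparisons. In GENCODE's annotation of GRCm38, Myh11 lies at chr16:14194535-14291372 (minus strand), Acta2 at chr19:34241090-34255590 (minus strand), Smtn at chr11:3517523-3540612 (minus strand) and Tagln at chr9:45929619-45936058 (minus strand), where Pcsk7 overlaps Tagln on the other strand. Of the stretches of 65 bases in their transcripts, 1.46% in Myh11, 1.10% in Actg2 and 0.304% in Acta2 matched a related myosin or actin gene within 2 mismatches. How many reads the relatives contributed was not measured.

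**Figure D1:**
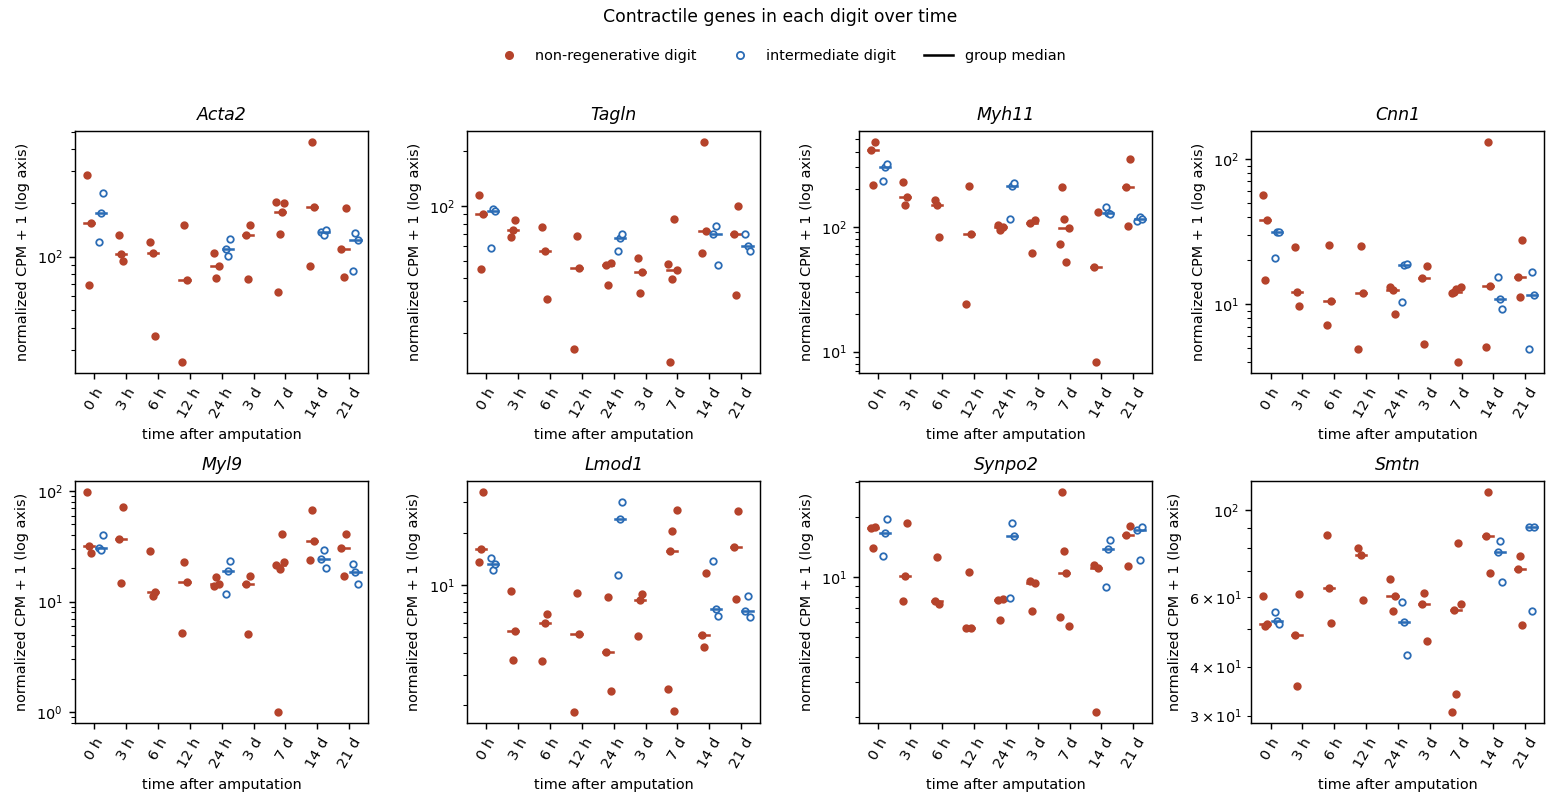
Normalized CPM plus 1 (log axis) of 8 contractile genes in each digit against time after amputation, non-regenerative digits filled, intermediate digits open, bars at the group median. Myh11 in the non-regenerative digits lay between 216 and 476 CPM at 0 hours and between 92.4 and 101 at 24 hours, while Smtn stayed between 49.6 and 65.9 in those groups.

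The first comparison asked how each gene differed from the 0-hour digits after non-regenerative amputation. Over 8 times, 73 pairs of gene and time were tested, 61 had a value below 0, and 7 were called, all of them lower. All 8 comparisons share the same 0-hour digits, so neither the signs nor the calls are independent of one another. The share of all genes below 0 was not counted. Of the 7, 5 fell at 24 hours, at which 10.7% of 13420 genes were called and 5.14% were called lower. The motor genes Myh11 and Myl9, the thin-filament gene Cnn1 and the actin organisers Lmod1 and Synpo2 fell, whereas Acta2, Tagln, Des and Smtn were not called. In the 5 genes each 24-hour digit was below each 0-hour digit, as in 18.7% of the genes tested.

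Myh11, the motor itself, stood at 411, 216 and 476 CPM in the non-regenerative digits at 0 hours and at 101, 92.4 and 98.2 at 24 hours. Every 24-hour digit was under every 0-hour digit, and the 24-hour digits were close to one another. Its log2 fold change was −1.91 ± 0.29 (SE, n = 3 and 3, adjusted p = 0.00448). Within the earlier period the log2 ratio of the means was −2.03 and within the later period −1.89, with 1 or 2 digits a group. Its partner Myl9 was at 97.2, 30.6 and 26.3 CPM at 0 hours and at 13.0, 15.6 and 13.5 at 24 hours, again without overlap. Myl9 fell by 1.86 on the log2 scale (SE 0.48, adjusted p = 0.0328), with 1 of the 0-hour digits far above the other two. Within the later period alone its log2 ratio was −0.83, and within the earlier −2.79.

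Cnn1, which restrains the motor on the thin filament, went from 55.7, 13.6 and 37.0 CPM at 0 hours to 12.2, 11.5 and 7.54 at 24 hours. The groups did not overlap, but the lowest 0-hour digit lay near the highest 24-hour digit. Its log2 fold change was −1.74 ± 0.47 (adjusted p = 0.0379). Lmod1 stood at 12.6, 15.1 and 33.5 CPM at 0 hours and at 3.09, 7.45 and 1.44 at 24 hours, the last from 8 counts. It fell by 2.31 on the log2 scale (SE 0.59, adjusted p = 0.0317). Synpo2 showed the tightest groups of these genes, with 16.6, 12.9 and 16.8 CPM at 0 hours against 6.65, 5.12 and 6.82 at 24 hours. It fell by 1.31 on the log2 scale (SE 0.27, adjusted p = 0.0156).

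The most abundant pair, Acta2 and Tagln, was not called at 24 hours. Acta2 was at 286, 68.3 and 153 CPM at 0 hours and at 104, 74.6 and 87.5 at 24 hours, so that replicate 2 at 0 hours lay below all the 24-hour digits (log2 fold change −0.92 ± 0.44, adjusted p = 0.179). Tagln had 114, 44.2 and 89.2 CPM at 0 hours and 46.5, 35.6 and 47.2 at 24 hours (−0.93 ± 0.32, adjusted p = 0.0803). Without non-regenerative replicate 2 at 0 hours, both were called, with log2 fold changes of −1.30 for Acta2 (adjusted p = 0.0355) and −1.23 for Tagln (adjusted p = 0.0174). Smtn differed from the rest in sign. Its digits held 59.7, 49.6 and 50.5 CPM at 0 hours and 65.9, 54.5 and 59.4 at 24 hours, and the groups overlapped (0.18 ± 0.16, adjusted p = 0.465). Des gave −0.999 ± 0.76 (adjusted p = 0.396), with no digit above 8.12 CPM.

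The calls at 24 hours differed in how far they rested on single digits. The Myh11 call was kept without any 1 of the 6 digits, with log2 fold changes of −2.18 to −1.68 and adjusted p of at most 0.028. The Cnn1 call ended without 0-hour replicate 1 or 3 or any 1 of the 24-hour digits, with adjusted p of up to 0.117. The Lmod1 call ended without 0-hour replicate 2 or 3 or 24-hour replicate 1 or 3, with adjusted p of up to 0.123, and the Synpo2 call without 0-hour replicate 3 (0.0732) or 24-hour replicate 1 (0.0537). The Myl9 call ended without any 1 of the 24-hour digits (up to 0.1124), and its log2 fold change ranged from −2.172 to −1.005. With limma on log2(normalized TPM + 1) in place of edgeR, the calls of Cnn1 (adjusted p = 0.190), Myl9 (0.0619) and Synpo2 (0.142) ended. All 5 calls ended in the fit that pooled the spread of the 41 digits, where the log2 fold change of Myh11 was −1.92 with an adjusted p of 0.101. That fit called 2.21% of 14996 genes at 24 hours. With the date period as a term in the fit of the 0-hour and 24-hour digits alone, a fit added after seeing the data, all 5 were called.

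**Figure D2:**
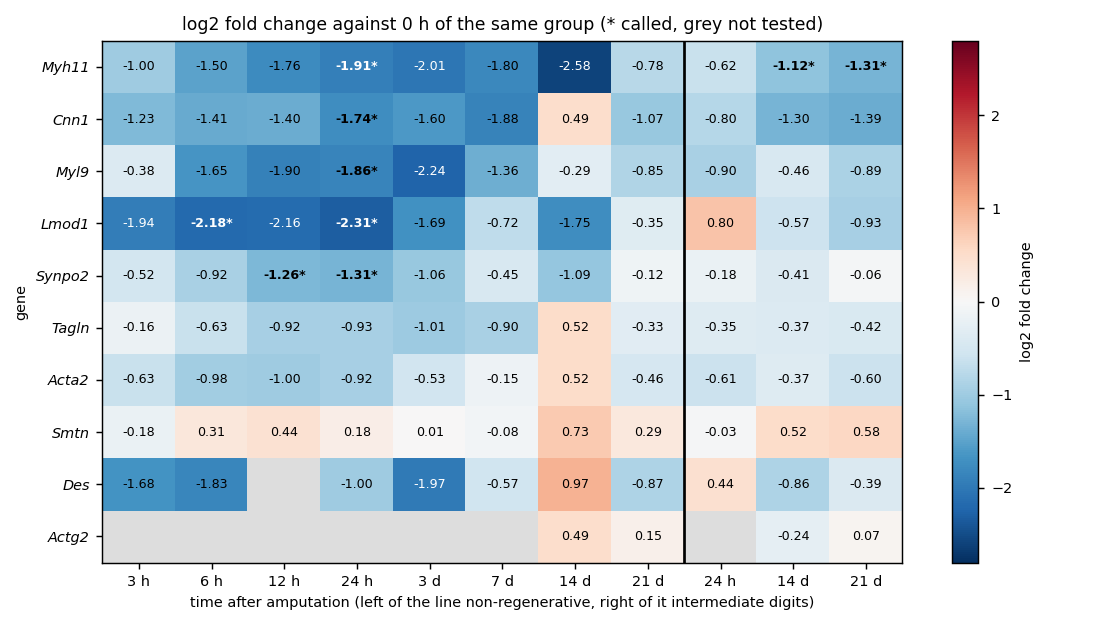
Fold changes (log2) of the 10 genes against 0 hours of the same group, by time after amputation, non-regenerative digits left of the line and intermediate digits right of it. Blue is lower, red is higher, asterisks mark the 9 calls, and grey cells were not tested. The lowest cell is Myh11 at 14 days (−2.58, not called), and Smtn is near or above 0 at most times.

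Calls at the other times were sparse. At 6 hours Lmod1 fell, from 12.6 to 33.5 CPM at 0 hours to 2.63, 4.99 and 5.75 (log2 fold change −2.18 ± 0.47, adjusted p = 0.0355), when 1.62% of 13168 genes were called lower. At 12 hours Synpo2 fell, to 4.57, 9.61 and 4.57 CPM (−1.26 ± 0.36, adjusted p = 0.046), when 4.64% of 13075 genes were called lower. The Lmod1 call ended without 0-hour replicate 2 or 3 or any 1 of the 6-hour digits, and the Synpo2 call without any 1 of the 0-hour digits or 12-hour replicate 1 or 3. Myh11 lay just outside the threshold at 6 hours (−1.50 ± 0.36, adjusted p = 0.0503) and at 3 days (−2.01 ± 0.36, adjusted p = 0.0529). At 3 days it stood at 106, 60.9 and 112 CPM, and it was called without 0-hour replicate 2 (adjusted p = 0.0412). With the date period in the fit of the pair, Myh11 and Myl9 were called at 6 hours and at 3 days, Cnn1 at 3 days and Myl9 at 12 hours, whereas the Synpo2 call at 12 hours ended. All 12-hour digits were of the earlier period, as was only replicate 1 at 0 hours, so their change rests on that 0-hour digit alone in this fit. It held 97.2 CPM of Myl9, against 30.6 and 26.3 in the other 0-hour digits. No member was called at 3 days, against 0.723% of 13286 genes. At 3 hours none of 9 members tested was called, nor any of 12562 genes (0.0%), of which 1362 (10.8%) had an unadjusted p under 0.05, Lmod1 and Myh11 among them.

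At 7 days Acta2 spanned 62.1 to 200.4 CPM with a median of 178 over 5 digits, while Myh11 spanned 51.4 to 207 with a median of 96.1. Myh11 and Cnn1 lay under every 0-hour digit in all 5, the other members tested did not, and 3.7% of 13046 genes did. The log2 fold changes were −1.80 ± 0.44 for Myh11 (adjusted p = 0.335) and −0.15 ± 0.49 for Acta2, and no member was called, against 0.0537% of the genes. Without replicate 2 at 7 days Myh11 was called (−2.15, adjusted p = 0.036). That library had a count of 0 for Myl9, the only digit without one, while its Synpo2 level of 25.7 CPM was the highest of all digits.

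At 14 days Lmod1, Myh11 and Synpo2 lay below every 0-hour digit in all 3 non-regenerative digits, as did 8.25% of the genes, and Smtn lay above, as did 9.43%. Replicate 2 held the highest levels of any digit for Acta2 (438 CPM), Tagln (224), Cnn1 (129.8), Des (19.4) and Smtn (110.4), and the lowest for Myh11 (7.27) and Synpo2 (1.119). Of 13752 genes with a mean of at least 1 CPM, 3717 (27.0%) were highest and 3994 were lowest in that library. Among sweat gland genes 5 of 6 were highest and 0 lowest there, and among pericyte genes 5 of 10 highest and 1 lowest. Endothelial genes were split, with 4 of 10 highest and 4 lowest, as were keratinocyte genes, with 3 of 8 highest and 2 lowest. The part of these cells in the member values was not tested. The other two digits had 88.1 and 189 CPM of Acta2 and 46.4 and 131 of Myh11. None of the 10 members was called, nor any of 13567 genes (0.0%), of which 1044 had an unadjusted p under 0.05. The log2 fold change of Myh11 was −2.58, with −3.12 within the earlier and −2.31 within the later period, and it was called in the fits of all 41 digits without (adjusted p = 0.0137) and with the date period (0.013). At 21 days Myh11 was at 205, 99.6 and 345 CPM and overlapped the 0-hour digits (−0.78 ± 0.46, adjusted p = 0.832), and no member was called against 0.452% of 13712 genes.

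The ratio of Myh11 to Acta2, in normalized TPM within each digit, expresses motor against actin without the scaling between libraries. It was 0.681 ± 0.260 (SD, n = 3) in non-regenerative digits at 0 hours, 0.445 ± 0.052 at 3 hours, 0.294 ± 0.035 at 24 hours and 0.209 ± 0.010 at 3 days. Of the 0-hour digits, the 1 of the earlier period was at 0.380 and those of the later period at 0.838 and 0.824. All 3-hour digits were of the earlier period and lay above that 0.380, at 0.387 to 0.489. At 21 days the ratio stood at 0.444 ± 0.086. At 14 days the digits spanned 0.00439 to 0.183, the lowest being replicate 2, and at 7 days 0.0765 to 0.882, the highest being replicate 2. All digits at 12 hours, 24 hours, 3 days and 14 days lay under the lowest 0-hour value of 0.380. In intermediate digits the mean was 0.448 ± 0.070 at 0 hours, 0.433 ± 0.142 at 24 hours, 0.258 ± 0.022 at 14 days and 0.276 ± 0.067 at 21 days. The ratio of Tagln to Acta2 moved less, between 0.556 and 2.24 over the non-regenerative digits, and its ranges overlapped at most times.

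**Figure D3:**
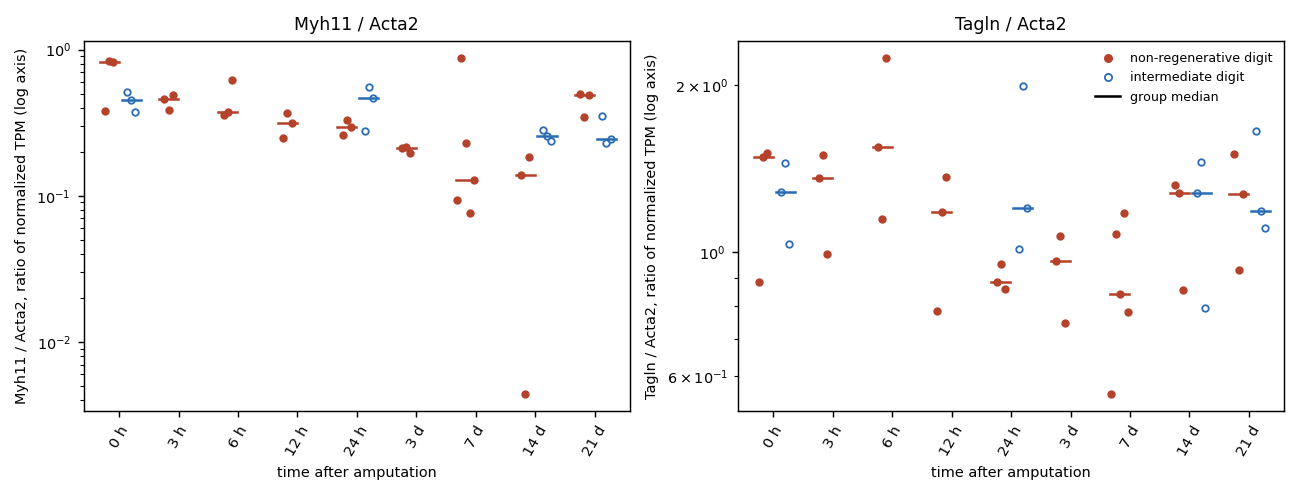
Ratio of Myh11 to Acta2 (left) and of Tagln to Acta2 (right) in normalized TPM (log axes) in each digit, with group medians. The Myh11 ratio in non-regenerative digits went from 0.380 to 0.838 at 0 hours to 0.197 to 0.217 at 3 days, and 1 digit at 14 days lies far below the rest at 0.00439.

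In intermediate digits, 29 pairs of gene and time were tested, all against the same 0-hour digits. Of these pairs, 2 were called, Myh11 at 14 and at 21 days. Myh11 stood at 232, 299 and 318 CPM at 0 hours, at 144, 127 and 125 at 14 days and at 110.3, 118 and 114 at 21 days. The late digits were close to one another and all under the 0-hour digits, as in 9.65% of the genes at 14 days and 10.6% at 21 days. It fell by 1.116 on the log2 scale at 14 days (SE 0.17, adjusted p = 0.0156) and by 1.31 at 21 days (SE 0.15, adjusted p = 0.00409), when 0.187% of 13334 and 0.165% of 13360 genes were called lower. The call at 21 days was kept without any 1 of the 6 digits (adjusted p of at most 0.039), and that at 14 days ended without 0-hour replicate 2 or 14-day replicate 2 or 3 (up to 0.113). Both ended in the fit of all 41 digits, which called 0.167% of 14996 genes at 21 days. With the date period in the fit of the pair, both calls were kept. Cnn1 went from 19.8, 30.3 and 30.2 CPM to 14.3, 9.79 and 8.21 at 14 days (−1.30 ± 0.29, adjusted p = 0.0685), and without 14-day replicate 1 (adjusted p = 0.029) or with the date period in the fit of the pair (0.0473) it was called. Acta2 kept a narrow range at 14 days, with 136, 132 and 139 CPM against 119.6, 174 and 226 at 0 hours (−0.37 ± 0.22, adjusted p = 0.536).

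Smtn lay in the other direction in these digits as well. It stood at 54.0, 51.2 and 50.5 CPM at 0 hours, at 77.3, 82.8 and 64.9 at 14 days and at 89.5, 54.5 and 89.5 at 21 days, so that each late digit was above each 0-hour digit. The log2 fold changes of 0.52 ± 0.15 and 0.58 ± 0.19 did not pass (adjusted p = 0.155 and 0.177), and 10.3% and 11.9% of genes had all late digits above the 0-hour digits. At 24 hours no member was called, against 0.0152% of 13172 genes. Of the 9 members tested, 3 had an unadjusted p under 0.05 there, as had 15.4% of the genes, namely Acta2, Cnn1 and Myl9, all with a value below 0. Over the 4 times, the F test of the time course called Myh11 (adjusted p = 0.0108) and Lmod1 (adjusted p = 0.0487) in intermediate digits, where it called 6.21% of 14004 genes. Lmod1 spanned 11.2 to 13.4 CPM at 0 hours, 10.5 to 29.1 at 24 hours and 5.52 to 7.57 at 21 days. Leaving out any 1 of 10 of the 12 digits ended its call (adjusted p of up to 0.171), all but replicate 1 at 24 hours and replicate 1 at 14 days, whereas that of Myh11 was kept in all 12 (at most 0.0455). With the date period as a term Lmod1 was not called (adjusted p = 0.0972) and Myh11 was. In non-regenerative digits the same test over 9 times called no member and 7.62% of 14434 genes, with Myh11 the nearest (adjusted p = 0.116). Without replicate 3 at 14 days Myh11 was called there, and without replicate 1 at 14 days Cnn1 was (adjusted p = 0.0488).

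Intermediate and non-regenerative digits were then compared at the same time. No member was called at 0 or 24 hours or at 14 or 21 days, against no gene at the first 3 of these times (491, 1472 and 270 genes had an unadjusted p under 0.05) and 0.648% of 13736 at 21 days. At 24 hours Lmod1, Myh11, Synpo2 and Tagln were higher in each intermediate digit than in each non-regenerative digit, as were 9.05% of 13024 genes. Lmod1 stood at 10.5, 23.1 and 29.1 CPM in the intermediate against 3.09, 7.45 and 1.44 in the non-regenerative digits (2.38 ± 0.59, adjusted p = 0.292). Myh11 was at 114, 209 and 222 against 101, 92.4 and 98.2 (0.93 ± 0.26, adjusted p = 0.334). Synpo2 was at 6.86, 17.6 and 15.1 against 6.65, 5.12 and 6.82 (1.1195 ± 0.40, adjusted p = 0.39). In all 3 genes intermediate replicate 1 lay next to the non-regenerative digits, and without it they were called, with adjusted p of 0.0219 for Lmod1, 0.00561 for Myh11 and 0.029 for Synpo2. That digit was the only intermediate one of the earlier period, from which 2 of the 3 non-regenerative digits came, so that without it the period moves with the group, and the part of the period in these calls was not tested. Within the earlier period the log2 ratios of the means were 1.81 for Lmod1, 0.19 for Myh11 and 0.02 for Synpo2, and within the later period 1.68, 1.21 and 1.51, with 1 or 2 digits a group. With the date period in the fit of the pair no member was called (adjusted p = 0.214 for Lmod1). All 6 neutrophil genes had a value below 0 in this comparison, with a median log2 fold change of −1.05 and none called, and their summed level was 69.8 to 571 CPM there against 456 to 790. Their part in the result was not tested. At 21 days Lmod1 stood at 6.04, 7.57 and 5.52 CPM in the intermediate against 15.6, 7.30 and 25.8 in the non-regenerative digits (−1.36 ± 0.43, adjusted p = 0.213), and without non-regenerative replicate 2 Myh11 was called lower in the intermediate digits (−1.29, adjusted p = 0.0395). At 21 days all intermediate digits were of the earlier and all non-regenerative digits of the later period, so that group and period cannot be told apart.

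**Figure D4:**
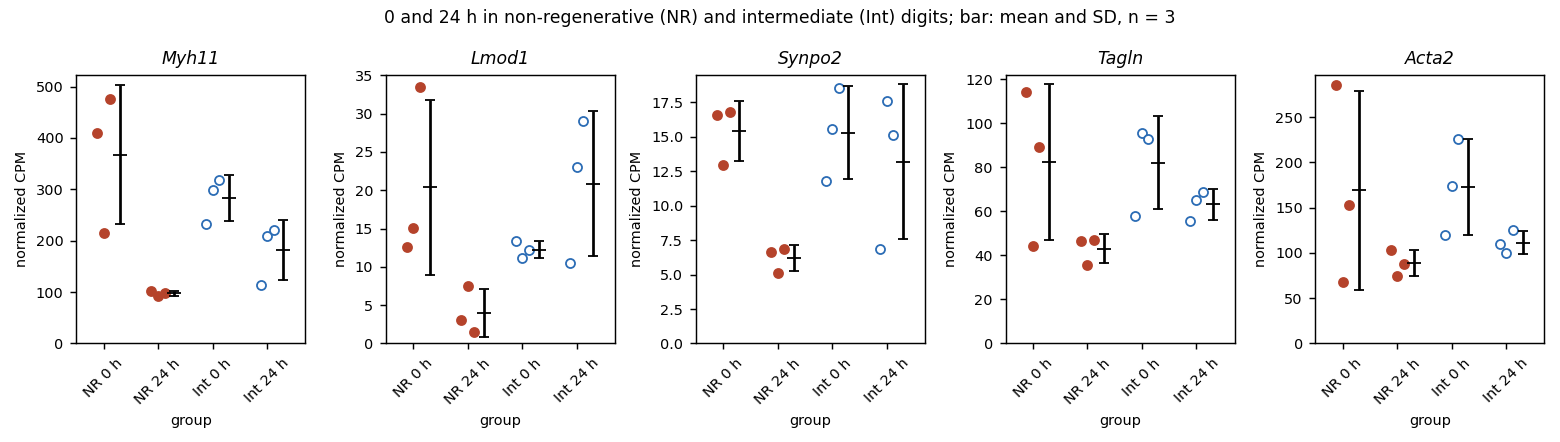
Normalized CPM of 5 genes at 0 and 24 hours in non-regenerative (NR, filled) and intermediate (Int, open) digits, with the mean and SD of 3 digits beside the points. At 24 hours Myh11 was 97.3 ± 4.5 CPM in non-regenerative and 182 ± 59 in intermediate digits, where 1 intermediate digit (114) lies near the non-regenerative ones.

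Whether the change from 0 hours itself differed between the groups was tested over all 41 digits. None of 30 pairs of gene and time was called, and none of 14996 genes at 24 hours, 14 days or 21 days (227, 1050 and 120 with an unadjusted p under 0.05). Lmod1 at 24 hours gave the largest difference, 3.10 ± 1.121 on the log2 scale (unadjusted p = 0.00891, adjusted p = 1.0), with its own change at −2.31 in the non-regenerative digits and 0.80 ± 0.36 in the intermediate digits (adjusted p = 0.332). For Myh11 the difference was 1.28 ± 0.85 at 24 hours and −0.55 ± 0.84 at 21 days. The slope of the members on the labelled level within group and time was at most 0.054 per percent in size (0 of 10 called, none with an unadjusted p under 0.05). None of 14996 genes was called on this slope either, and 2.37% had an unadjusted p under 0.05.

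Late (7, 14 and 21 days) against acute (6, 12 and 24 hours) non-regenerative digits put all 9 members tested above 0, with a median log2 fold change of 0.91, where the median of all genes was 0.15. None was called, against 8.81% of 13060 genes. Acta2 was nearest (1.007 ± 0.35, adjusted p = 0.0591), and Myh11 (0.17 ± 0.44) and Smtn (0.01 ± 0.22) were near 0. Without replicate 2 at 14 days 1 member was called, Lmod1 (1.52, adjusted p = 0.0468). Of 12 fibroblast matrix genes, 7 rose in the same comparison. The times of each side were pooled with no term for time. All 12-hour digits were of the earlier and all 21-day digits of the later period, so that late and acute moved partly with the period. With the date period as a term, no member was called in this comparison.

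Other genes of smooth muscle did not follow the 10 as a block. At 24 hours in the non-regenerative digits, 10.7% of 13420 genes were called. Of 24 further contractile and regulatory genes, 20 were tested at 24 hours in the non-regenerative digits, 4 rose and 4 fell, and their median log2 fold change was 0.03 against −0.04 for all genes and −1.31 for the 9 members tested. The 4 that fell include Mylk, the kinase that phosphorylates the light chain (−1.56), and Ppp1r12b, a subunit of the phosphatase that reverses it (−1.05), with Pgm5 and Mrvi1. The 4 that rose were Tagln2 (1.43 ± 0.20, adjusted p = 0.00341), a Tagln relative found in many cell types, Mkl1 (1.55 ± 0.24, adjusted p = 0.00497), the myocardin relative that responds to actin, Vcl (1.33 ± 0.21, adjusted p = 0.00548), vinculin of focal adhesions, and Flna, the actin cross-linker filamin A. These are genes that many cell types also use.

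The counts of the cell-type lists in the same comparison stand beside 10.7% of 13420 genes called. Among pericyte genes, 1 of 9 tested was called, which is near that share. It was Rgs5, a regulator of G-protein signalling and a marker of these cells, which fell by 1.108 on the log2 scale (SE 0.19, adjusted p = 0.0068). Heyl, a Notch target, gave −2.70 (adjusted p = 0.0599) and Abcc9, a channel subunit, −0.91 (adjusted p = 0.103). Of 10 endothelial genes, Vwf, a clotting factor carrier, fell (−1.83) and Cdh5, the cadherin of endothelial junctions, rose (1.014), and Tie1 gave −1.05 (adjusted p = 0.1117). Of 12 fibroblast genes, Tnc rose (4.08) and Col3a1 (−1.26) and Col1a1 (−1.40) fell. Sweat gland genes, whose myoepithelial neighbours contain Acta2, were lower too, all 6 below 0 with a median of −1.52. In that list 5 had an unadjusted p under 0.05, as had 32.9% of 13420 genes. Only Oxtr was called (−3.37, adjusted p = 0.036), with Krt8 at −1.43 and Krt19 at −1.62. Oxtr was scarce, with a mean of 1.49 CPM at 0 hours and 0.117 at 24 hours. The summed level of the sweat gland genes was 128 to 226 CPM at 0 hours and 56.9 to 97.3 at 24 hours, and their part in the fall of the contractile genes was not tested. Skeletal muscle genes were near 0, with sums of 9.32 to 42.0 CPM at 0 hours and 2.51 to 7.10 at 24 hours. Of 3 tested, 1 was called (Tnnt3, −4.10, from a mean of 3.21 CPM to 0.156), with Tnni2 at −0.81 and Mylpf at −0.33. Of 8 keratinocyte genes, Dsg3 (3.05) and Krt14 (1.69) rose, and Col17a1 gave 0.72 (adjusted p = 0.0331, under 2-fold). Among 5 neutrophil genes tested, 4 rose, among them S100a9 (5.88), S100a8 (9.60, from a mean of only 0.154 CPM at 0 hours) and Mmp9 (4.79). Of 6 macrophage genes, 1 rose, Cd14 (4.18), with Cd68 at 0.72 and Mrc1 at −0.16.

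**Figure D5:**
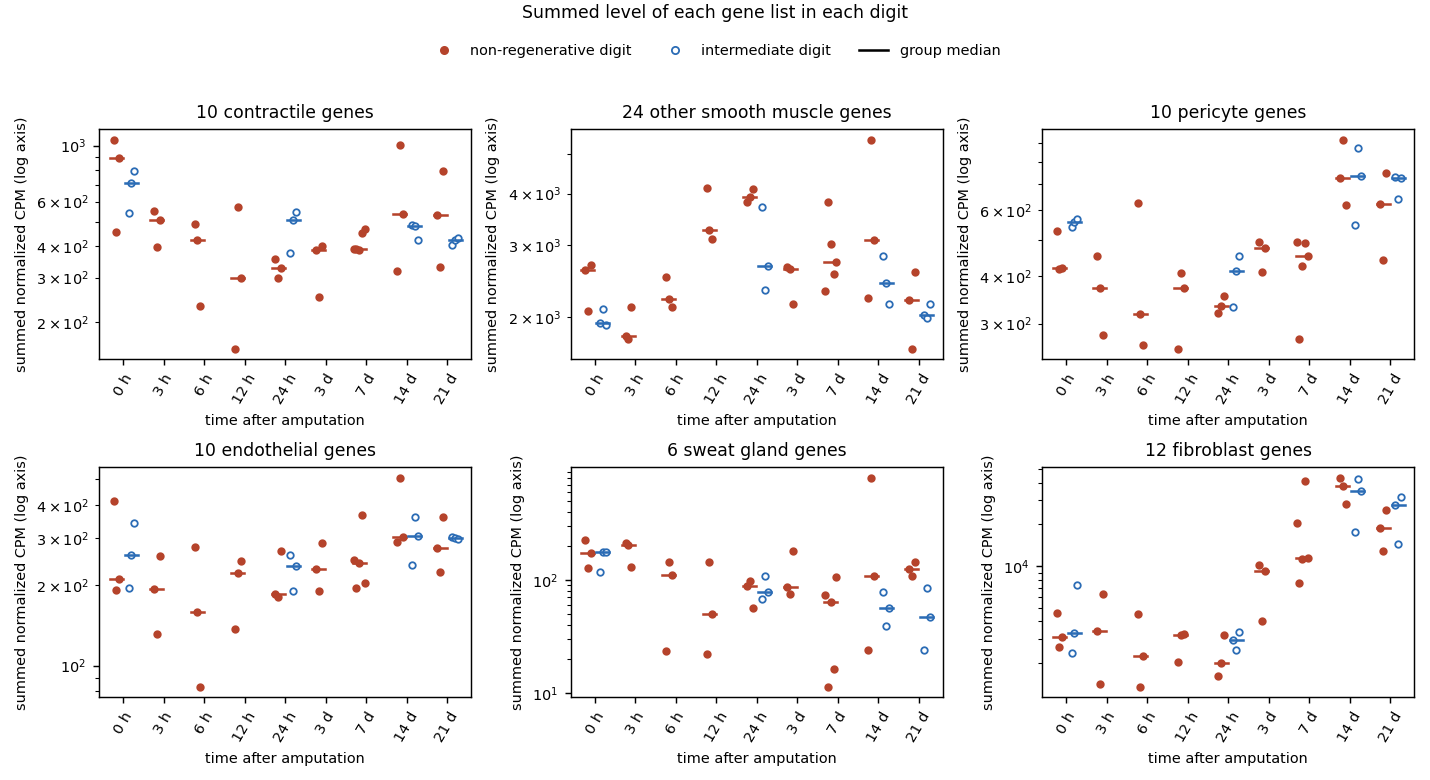
Summed normalized CPM (log axes) of the 10 contractile genes and of 5 other gene lists in each digit against time, with group medians. The contractile sum in non-regenerative digits was 454 to 1056 CPM at 0 hours and 299 to 355 at 24 hours, and the sweat gland sum of 1 digit at 14 days (806 CPM) lies above all others.

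Over the 41 digits the members were related to one another to different degrees, given here as Spearman rho of normalized CPM, which shares each library's depth and scaling. The closest pair was Tagln and Myl9 (0.75), followed by Myh11 and Synpo2 (0.70) and Myh11 and Lmod1 (0.65). Smtn was the exception, with a median rho of −0.11 to the other 9 and the lowest pair with Lmod1 (−0.43). Without replicate 2 at 14 days these values were 0.73, 0.68, 0.64 and −0.41 for the 4 pairs named. The genes whose pattern was most like the mean of the members, by Pearson r over 41 digits and 13691 genes, were Csad (0.79), Tns2 (0.78), Sema3g (0.76), Adcy5 (0.75), Txnip (0.75), Mllt6 (0.75), Dynll2 (0.74) and Gigyf1 (0.73). Without the same digit the first 4 were Mylk (0.80), Crim1 (0.79), Add3 (0.78) and Timp3 (0.75), so that the order rested on that library, and Csad, Tns2 and Sema3g stayed among the first 8.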

How the data were processed

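Total RNA of the tissue around the wound bed was poly(A)-selected and sequenced as single reads after ligation-mediated library preparation. The authors mapped reads of 65 bases to mouse genes (Ensembl, mm10) with Bowtie, allowing 2 mismatches, and the deposited expected counts and TPM per gene were estimated with RSEM 1.2.3, the version in the submitters' processing notes. The deposited normalized TPM are a signal that the authors scaled between libraries by median-by-ratio, so that they no longer sum to the same total. Gene names turned into dates (26) were restored. The rounded expected counts were tested with edgeR 4.0.16 (R 4.3.3) on genes kept by its expression filter, with TMM scaling, in the pair of groups compared, in all digits of a group for the time courses, and in all 41 digits for the difference of changes and the slope. The study used EBSeq at the same 2-fold limit, which was not run here. Alternatives were DESeq2 1.42.0, limma 3.58.1 on log2(normalized TPM + 1), another scaling, no filter, no fold limit, a single fit of all digits without and with the date period, the date period in the fit of a pair, and leaving out each digit in turn. The fits were tested on simulated data. Levels printed as CPM are scaled over the 41 digits, whereas overlap shares over all genes are on each pair's own scale.

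Samples were grouped by their titles, which also give a mark, a date and a side for each digit. What the date refers to is not stated, and several digits share mark, date and side. At 14 days 1 non-regenerative and 1 intermediate digit do. Among non-regenerative digits, replicate 1 at 0 hours shares them with replicate 3 at 12 hours, a pair inside a tested comparison. Replicate 3 at 3 days shares them with replicate 1 at 7 days. Intermediate replicates 2 and 3 at 0 hours share them with non-regenerative replicates 1 and 2 at 12 hours, in that order. Nothing ties each digit to its own animal, so p-values measure the spread between these digits. No digit pair agreed within sampling noise. Depth sets the precision: a count of 3 was taken as the floor. The members and lists were chosen with earlier results of these data known. Named genes are all 10 members, the 3 genes of each list with the smallest p at 24 against 0 hours in non-regenerative digits, and the 8 genes most like the members; Ppp1r12b, Mylk, Pgm5, Mrvi1 and Flna were named after their values were seen.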

Additional observations from a re-analysis of the deposited data

Results flagged for a closer look

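Cnn1 in non-regenerative replicate 4 at 7 days was 3.01 CPM, while the other 4 digits of that group lay between 10.97 and 12.04, so that it was far from the rest by Dixon's rule. It was the only one of 10 genes in the 1 group large enough to be tested, and chance flags about 1 in 20 such groups.

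The macrophage libraries, which enter no comparison, held several of the genes. In M0 and M2 cultures Acta2, Myl9 and Actg2 averaged above their digit medians of 122, 39.2 and 1.71 normalized TPM. Tagln, Smtn and Synpo2 averaged below theirs (137, 68.9 and 3.17) in every culture. Acta2 averaged 280 ± 60 normalized TPM (SD, n = 3) in M0 cultures, 248.6 ± 24.8 in M2 and 6.89 ± 1.25 in M1. Tagln reached 111 ± 3 in M2 and 13.3 ± 0.5 in M1, Myl9 65.0 ± 10.2 in M0 and 1.79 ± 0.33 in M1, and Actg2 29.4 ± 4.3 in M2 and 1.31 ± 0.46 in M1. Smtn reached 13.2 ± 3.2 in M0 and Synpo2 1.21 ± 0.26 in M1. Myh11 averaged 0.249 in M0 and was lower in the others. The same cultures held Cd68 at 1217 to 1888 and Csf1r at 440.0 to 1637, and Col1a1, a fibroblast collagen, at 145 to 476. The tables of macrophages and digits were normalized separately, and the difference from the digits was not tested.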

How the results depend on the processing

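No paired analysis was possible by replicate number because the titles of the digits carry none. They carry dates, and the date period was added as a term in the fit of each pair after seeing the data, except between the groups at 21 days, where it cannot be separated from them. Against 0 hours, the count of 7 calls in non-regenerative digits was 15 with DESeq2, 12 with the date period in the fit of the pair, 11 with no filter on low counts, 2 with limma, and 2 to 9 without each digit. In both fits of all digits it was 1, Myh11 at 14 days, which is not among the 7. Over all genes at 24 hours, the main fit called 10.7%, DESeq2 13.7%, no filter 8.61%, limma 7.68% and the fit of all digits 2.21%. The 2 calls in intermediate digits became 4 with DESeq2, 1 with limma and 0 in both fits of all digits, and 1 to 3 without each digit. Over all genes at 21 days, the main fit called 1.39%, DESeq2 3.09%, limma 0.639% and the fit of all digits 0.167%. Between the groups at the same time, the 0 calls became 1 with DESeq2 and 0 to 3 without each digit. Late against acute, the 0 calls became 3 with DESeq2 and 1 in the fit of all digits without the date period. They stayed 0 in the fit of all digits with the date period, and with that term in the fit of the late and acute digits. Without replicate 2 at 14 days, the only digit left out alone, 1 was called. Without that digit and replicate 2 at 7 days, an alternative chosen after seeing the data, 1 was called. Over all genes, late against acute, the main fit called 8.81%, DESeq2 12.4% and the fit of all digits 11.9%. The time course called 5 members with DESeq2 instead of 0 in non-regenerative digits (0 to 1 without each digit, 1 without the 2 libraries above) and 5 instead of 2 in intermediate digits (1 with limma, 1 with the date period, 1 to 2 without each digit). DESeq2 called 31.0% of 14224 genes in the non-regenerative and 15.3% of 13995 in the intermediate time course, against 7.62% and 6.21% in the main fit. The pooled fits take their spread from all 41 digits; for the others the cause was not tested. The difference of the changes and the slope on the level gave 0 calls under the alternatives run for them. Of 3026 values of single members under alternatives, 2931 kept their side of the threshold, 52 lost and 43 gained a call, and none of the called values changed sign. Depth limits Des and Actg2 most, with 3 counts or fewer in 7 and 11 digits.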
